A study of Mus musculus with 3 samples.

Results

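The Gata2 locus was examined in hematopoietic stem cells of old mice as a window of 180.0 kb on chromosome 6 from 88020000 to 88200000 (mm9), which holds Gata2 at about 88.144 to 88.157 Mb, its intronic enhancer and its far upstream enhancer near 77 kb. Its members were all regions of H3K27ac and H3K4me1 enrichment that overlapped this window, taken by position and by no measured value. The window itself was chosen with earlier results of these data known. There were 38 H3K27ac regions of 93413 in the genome and 51 H3K4me1 regions of 155027. H3K27ac is an acetylation that marks promoters and enhancers in use, and H3K4me1 is a methylation of enhancers and promoter flanks. Each was mapped by chromatin immunoprecipitation sequencing in 1 library, and 1 input library that was not analysed here accompanied them. The mice were of strain C57BL/6 and 24 months old, and every library came from biological replicate 1. The SP-KSL-CD150+ gate was used to sort the marrow cells. Its KSL-CD150+ part takes primitive cells with c-Kit and Sca-1 but no lineage markers that also carry the stem cell antigen CD150. Its SP part is a further criterion on top of these. No younger mice and no other cell type were compared. Differences below therefore have no replicate check and no p-value, and the values describe these libraries. No gene expression was measured in these libraries, so the cell label was not checked against marker genes.

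GATA2 is a zinc finger transcription factor that stem cells need to arise in the embryo and to persist in the marrow. Gata2 has a pair of alternative first exons, a distal one known as IS, used mainly in blood and neural cells, and a proximal one known as IG, used more widely. GATA factors bind several known elements of the mouse gene, which are named by their distance in kb from the distal start: 77, 3.9, 2.8 and 1.8 kb upstream and 9.5 kb downstream. The intronic element at 9.5 kb pairs an E-box with a GATA site and is required for stem cells to emerge, and the far upstream element is required in myeloid progenitors. In the human genome the counterpart of the far upstream element is moved next to MECOM by an inversion in leukemia. In the RefSeq gene table of assembly GRCm38.p6 the neighbours on the upstream side are, going outward, the non-coding Gm38856, the microRNA gene Mir6376 and Rpn1, which encodes a subunit of the oligosaccharyltransferase. Dnajb8, a chaperone gene, and Eefsec, which encodes the elongation factor for selenocysteine, follow on the other side. A further non-coding gene, Gm38708, overlaps Gata2 on the opposite strand.

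The promoter sequences are shown because the strongest acetylation of the locus lay over the start of the gene. RefSeq (GRCm38.p6, plus strand) holds a promoter for each of the Gata2 starts, and the 250 bases before each start are printed 5′ to 3′, from chr6:88193641-88193890 and chr6:88198414-88198663. These positions are of another assembly than the regions below and are not to be set beside them. Capitals mark matches to CCAAT or GGGCGG on either strand.
Gata2 promoter 1: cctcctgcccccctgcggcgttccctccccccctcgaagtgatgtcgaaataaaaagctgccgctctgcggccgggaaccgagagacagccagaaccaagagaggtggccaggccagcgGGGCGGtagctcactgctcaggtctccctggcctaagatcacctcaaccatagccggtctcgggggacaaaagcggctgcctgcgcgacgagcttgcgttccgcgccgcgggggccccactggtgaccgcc
Gata2 promoter 2: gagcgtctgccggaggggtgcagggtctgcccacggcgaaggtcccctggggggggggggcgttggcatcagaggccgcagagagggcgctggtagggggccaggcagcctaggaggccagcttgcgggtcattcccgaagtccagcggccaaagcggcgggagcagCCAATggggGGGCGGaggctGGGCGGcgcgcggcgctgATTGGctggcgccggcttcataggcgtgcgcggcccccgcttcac
Both are rich in G and C, at 67.2% in the distal and 74.0% in the proximal promoter, against a median of 52.4% over all 32851 promoters of the table. They hold 22 and 24 CG dinucleotides, against a median of 6. The GC box GGGCGG matched at 1 place in the distal and 2 places in the proximal promoter, and 32.7% of all promoters of this length held it. CCAAT matched at 2 places in the proximal promoter and at 0 in the distal one, with a share of 33.8% over all promoters. The GATA motif, searched as AGATAA with T also allowed first and G also allowed last, matched in neither, against 26.5% of all promoters with at least 1 match. The E-box CANNTG (66.2% of all promoters) and the ETS motif, searched as CAGGAA with C also allowed as its second letter (35.1%), also had 0 matches in both. All motifs were searched on both strands, and a match or its absence describes only these letters in this stretch.

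Acetylation was concentrated on the front of the Gata2 gene, and H3K4me1 was missing exactly there. The strongest and widest H3K27ac region of the locus ran from 88143366 to 88150711, a width of 7346 bp, from 0.63 kb before to 6.71 kb after the gene start. Its summit, 3.20 kb after the start, was 15.1-fold over the local background with 50 reads (exact 95% Poisson interval 37.1 to 65.9). All fold values are those the authors' peak caller gave, as the ratio of summit to local background. In the genome 97.1% of H3K27ac regions had a lower fold and 99.96% were narrower, and 41 regions were wider. This region made up 27.8% of the acetylated length of the window. Positions relative to the gene rest on a start known here only as about 88.144 Mb, so they are uncertain by up to about 1 kb. This holds as well for the element positions below, which were computed from that start, and for all distances to them.

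H3K4me1 had no region from 88143624 to 88151132, a stretch of 7.51 kb of which 97.3% was acetylated. The acetylated region touched H3K4me1 over its outermost 258 bp, 3.51% of its width. H3K4me1 ended 3.57 kb before the acetylation summit and resumed 3.94 kb after it. H3K4me1 regions genome-wide had at least 10 summit reads, so a weaker signal inside the stretch would not have been listed. The pair of Gata2 starts lie 4.77 kb apart in GRCm38.p6, and the 4 starts of Gm38708 lie 3.49 to 4.39 kb downstream of the distal Gata2 start there. Histone marks carry no strand, so acetylation at the sense and antisense starts cannot be told apart.

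**Figure D1:**
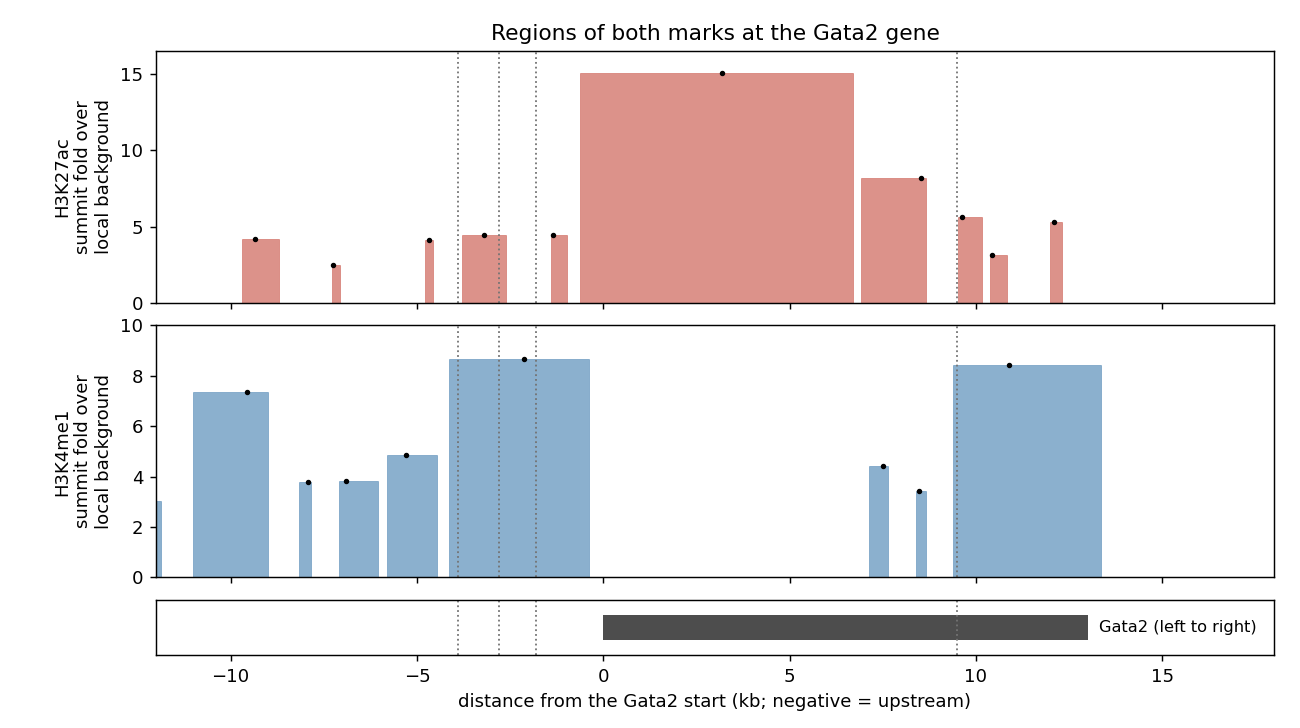
Regions of H3K27ac (top) and H3K4me1 (middle) around Gata2 (bottom bar), by distance from the gene start in kb; bar width is the region, bar height the authors' fold at its summit, black points the summits and dotted lines the known elements at 3.9, 2.8 and 1.8 kb upstream and 9.5 kb downstream. The 7346 bp H3K27ac region of 15.1-fold fills most of the stretch of 7.51 kb without H3K4me1. The 8.65-fold H3K4me1 region borders the stretch upstream, a 4.40-fold one borders it downstream, and the 8.42-fold one lies further downstream.

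Few acetylated regions of this width had so little H3K4me1. The comparison was chosen after the Gata2 values had been seen and is a description. The list held 427 H3K27ac regions of 4 kb or more, and H3K4me1 covered a median of 91.7% of their width (quartiles 66.7 and 100%). Of these regions, 302 had their summit inside H3K4me1, whereas the Gata2 summit lay outside. A summit outside H3K4me1 is common among strong regions, however. Of all 7255 H3K27ac regions of 10-fold or more in the genome, at least 5398 had their summit outside. Covered shares below the 3.51% of Gata2 were found in 4 of the 427, all narrower, from 4.01 to 7.17 kb, and the widest of the 4 had 0%. Among the 42 regions as wide as that of Gata2 or wider, Gata2 had the lowest share and the next lowest was 18.2%. The length of the stretch without H3K4me1 was also set beside those around all 5398 H3K27ac summits of 10-fold or more that lay outside H3K4me1 and between H3K4me1 regions. Their median stretch was 1219 bp (quartiles 906 and 1691 bp), and 280 of them, Gata2 included, were as long as that of Gata2 or longer. The median of the 280 was acetylated over 3.77% of its length (quartiles 1.99 and 7.89%), and only Gata2 among the 280 reached its 97.3%. These limits are the values of Gata2 itself. The comparison of stretches rests on the same wide region as the comparison of widths, so it is not separate support.

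**Figure D2:**
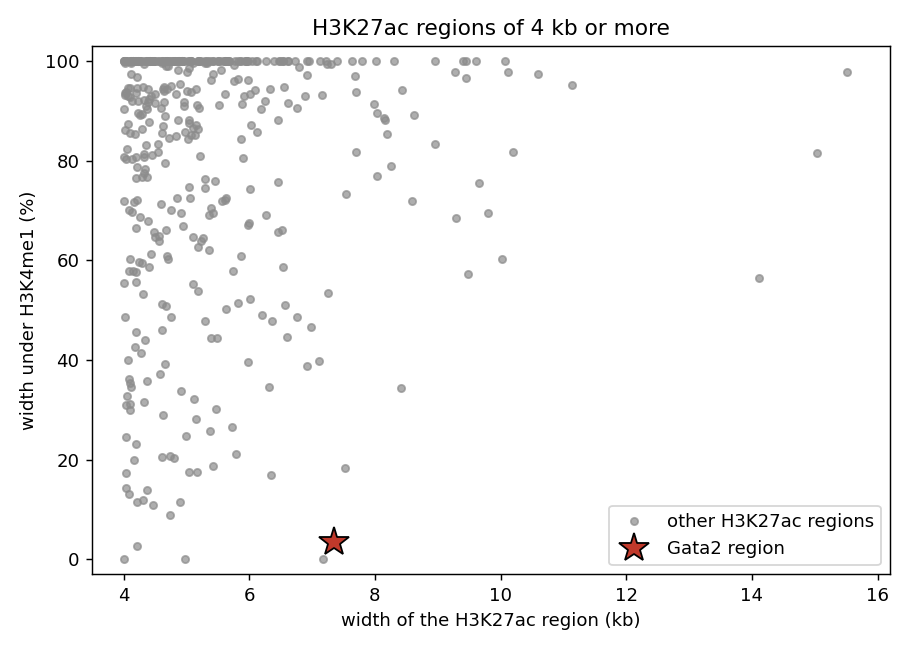
Each point is 1 of the 427 H3K27ac regions of 4 kb or more in the genome, by its width in kb and the percent of that width under H3K4me1; the star is the Gata2 region. It sits at 7.35 kb and 3.51%, far under the median of 91.7%, beside 1 region of 7.17 kb at 0%.

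The computed positions of the elements just upstream of the gene lay together inside the strongest H3K4me1 region of the locus, beside acetylation of middle strength. That region ran from 88139871 to 88143623 (3753 bp, the third widest) and reached 8.65-fold at its summit, 2.12 kb before the start, with 41 reads (interval 29.4 to 55.6). In the genome 96.6% of H3K4me1 regions had a lower fold. It spanned the computed positions of the elements at 3.9, 2.8 and 1.8 kb, and met 3 H3K27ac regions, which covered 50.4% of it. Because these positions are uncertain by up to about 1 kb, which acetylated region holds which element is not resolved. The acetylated region from 88140209 to 88141402 (1194 bp, 4.43-fold, 14 reads) held the position at 2.8 kb and began 109 bp from that at 3.9 kb. The next, from 88142602 to 88143041 (4.43-fold, 16 reads), began 402 bp from the position at 1.8 kb. One more summit within 2 kb of these elements, in the region from 88139223 to 88139424, had 4.14-fold and 13 reads. It lay in a neighbouring H3K4me1 region from 88138193 to 88139547 (4.87-fold, 28 reads). Their read intervals, 7.65 to 23.5, 9.15 to 26.0 and 6.92 to 22.2, overlapped each other and reached no higher than 26.0, under the lower bound of 37.1 at the gene start. Such intervals do not allow for taking the highest point of regions of unequal width. Nor do they allow for the region at the gene start being the strongest of the locus. In the genome 60.7%, 60.3% and 52.1% of H3K27ac regions had a lower fold than the 3 acetylated regions near these elements. In the 10 kb before the gene start as a whole, H3K27ac covered 36.9% and H3K4me1 75%, while in the gene span of 13 kb H3K27ac covered 75.9% and H3K4me1 33.8%. The shares of the whole genome were 2.11% and 6.54%. The order of the marks was opposite on either side of the start.

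The intronic enhancer carried both marks. An acetylated region with its summit 9.64 kb after the start ran from 88153524 to 88154160. It began 24 bp from the position computed for 9.5 kb, which is uncertain by up to about 1 kb. It reached 5.61-fold with 18 reads (interval 10.7 to 28.4), and 77.5% of H3K27ac regions in the genome had a lower fold. The whole of it lay inside an H3K4me1 region from 88153392 to 88157354, which at 3963 bp was the second widest of the locus and at 8.42-fold (39 reads, interval 27.7 to 53.3) the third strongest. The same H3K4me1 region held 2 further acetylated regions, from 88154369 to 88154828 (3.13-fold, 11 reads) and from 88156003 to 88156313 (5.32-fold, 17 reads). Between the gene start and the enhancer lay the third strongest and second widest H3K27ac region, from 88150918 to 88152667 (1750 bp, 8.20-fold, 28 reads). H3K4me1 covered 44.6% of it, in 2 small regions from 88151133 to 88151646 (4.40-fold, 21 reads) and from 88152390 to 88152655 (3.42-fold, 17 reads). Beyond the end of this block, 12.3 kb after the start, no H3K27ac region followed for 21.3 kb.

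The far upstream enhancer was broadly covered by H3K4me1 and carried acetylation of middle strength. An H3K4me1 region from 88065781 to 88067764 (1984 bp) held the position computed for 77 kb, which is uncertain by up to about 1 kb. Its summit was 163 bp from that position, with 5.69-fold and 26 reads (interval 16.98 to 38.1). The H3K27ac region from 88066231 to 88066683 lay wholly inside this H3K4me1 region, 317 bp from that position, with 3.91-fold and 14 reads (interval 7.65 to 23.5). Its local background was 1.19 times the genome-wide level, which lowers a fold value. In the genome 50.1% of H3K27ac regions had a lower fold, and its read interval lay below that of the gene start and overlapped that of the intronic enhancer. The limits given above for the interval at the gene start hold here too. Over the 20 kb around the far upstream element, H3K27ac covered 8.13% in 5 regions of 3.25 to 4.43-fold and 10 to 14 reads. H3K4me1 covered 60.6% of the same 20 kb in 8 regions of 3.16 to 8.64-fold and 14 to 40 reads. Both shares were above those of the genome, 2.11% for H3K27ac and 6.54% for H3K4me1.

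The strongest H3K4me1 region without acetylation lay close to this enhancer. It ran from 88071752 to 88074949 (3198 bp), with its summit 72.0 kb upstream of the start, and reached 8.64-fold with 40 reads (interval 28.6 to 54.5). That was within the counting error of the strongest H3K4me1 region of the locus, and the nearest H3K27ac region was 2162 bp away. Among the 102942 H3K4me1 regions of the genome without H3K27ac, 99.2% had a lower fold and 99.1% were narrower, and it ranked 641 by fold. An H3K27ac summit under 8 reads was never listed, so weak acetylation there was not detectable at this depth.

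**Figure D3:**
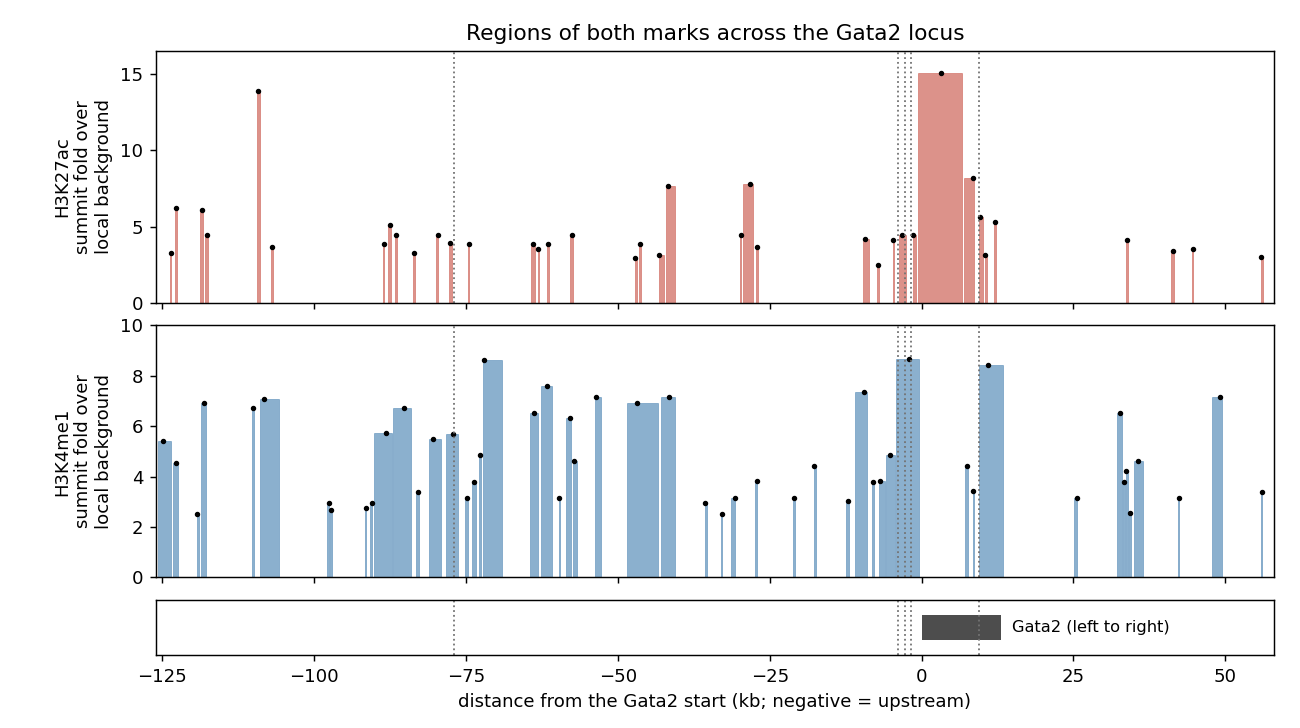
Regions of H3K27ac (top) and H3K4me1 (middle) across the window, by distance from the Gata2 start in kb; bar width is the region, bar height the authors' fold at its summit, black points the summits and dotted lines the known elements. The tallest H3K27ac bars stand at the gene (15.1-fold) and 109.2 kb upstream (13.9-fold), and the tallest H3K4me1 bars stand beside the gene start (8.65-fold) and 72.0 kb upstream (8.64-fold).

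The stretch between the far upstream element and the gene held separate islands of either mark. From 67 to 10 kb before the start there were 11 H3K27ac summits of 2.95 to 7.82-fold and 15 H3K4me1 summits of 2.53 to 7.58-fold. The strongest island with both marks was an H3K27ac region from 88101888 to 88103411 (1524 bp, 7.68-fold, 25 reads), 41.7 kb upstream by its summit. H3K4me1 covered 99.3% of it, in a region of 7.16-fold and 33 reads. The widest H3K4me1 region of the locus, from 88095575 to 88100686 (5112 bp, 6.90-fold, 35 reads), lay next to it and met 2 H3K27ac regions that covered 12.7% of it. H3K4me1 was also strong from 88081415 to 88083211 (7.58-fold, 35 reads) and, close to the gene, from 88132983 to 88135011 (7.37-fold, 34 reads), and both met 1 H3K27ac region.

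In the same stretch an acetylated region as strong had no H3K4me1. It ran from 88114563 to 88116191 (1629 bp, the third widest), with its summit 28.2 kb upstream, and reached 7.82-fold with 29 reads (interval 19.4 to 41.6). The nearest H3K4me1 region was 440 bp away, and the local background was 1.19 times the genome-wide level. A small neighbour from 88114050 to 88114335 (4.43-fold, 14 reads) likewise met no H3K4me1. From 27 to 9.7 kb before the start there was no H3K27ac region over 17.3 kb, a gap that 4 H3K4me1 regions overlapped.

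The other 5 H3K27ac regions without H3K4me1 lay at both ends of the window and near the far upstream element. Of all 7, 6 lay within 1 kb of an H3K4me1 region, and the median gap to the nearest was 440 bp (range 29 to 2068 bp). The strongest of all 7 ran from 88034561 to 88035100 (540 bp), 109.2 kb upstream by its summit, with 13.9-fold and 46 reads (interval 33.7 to 61.4). Its read interval overlapped that of the Gata2 start. In the genome it ranked 185 by fold among 26404 H3K27ac regions without H3K4me1. H3K4me1 regions ended 375 bp before it (6.74-fold, 31 reads) and began 51 bp after it (7.09-fold, 36 reads), so this site was flanked closely by H3K4me1 although it met none. No gene is assigned to it, because no annotation of mm9 was used here. The other 4 were weak, at 3.25-fold from 88060271 to 88060583, 3.84-fold from 88069351 to 88069589, 3.39-fold from 88185130 to 88185503 and 3.55-fold from 88188476 to 88188703, with 10 to 12 reads each.

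Downstream of the gene both marks covered less than in the other zones of the window. Over the 43 kb from the gene end to the end of the window, H3K27ac covered 2.48% in 4 regions of 3.02 to 4.14-fold, and H3K4me1 covered 13.9% in 9 regions of 2.57 to 7.16-fold. H3K27ac was there close to its genome share of 2.11%, and H3K4me1 above its genome share of 6.54%. The H3K4me1 regions from 88176238 to 88176950 (6.53-fold, 30 reads) and from 88191849 to 88193437 (7.16-fold, 33 reads) were the strongest there, and neither met H3K27ac. At the opposite end, from the window start to 87 kb before the gene, H3K27ac covered 8.71% with 8 summits of 3.25 to 13.9-fold, and H3K4me1 27.4% with 11 summits of 2.52 to 7.09-fold.

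**Figure D4:**
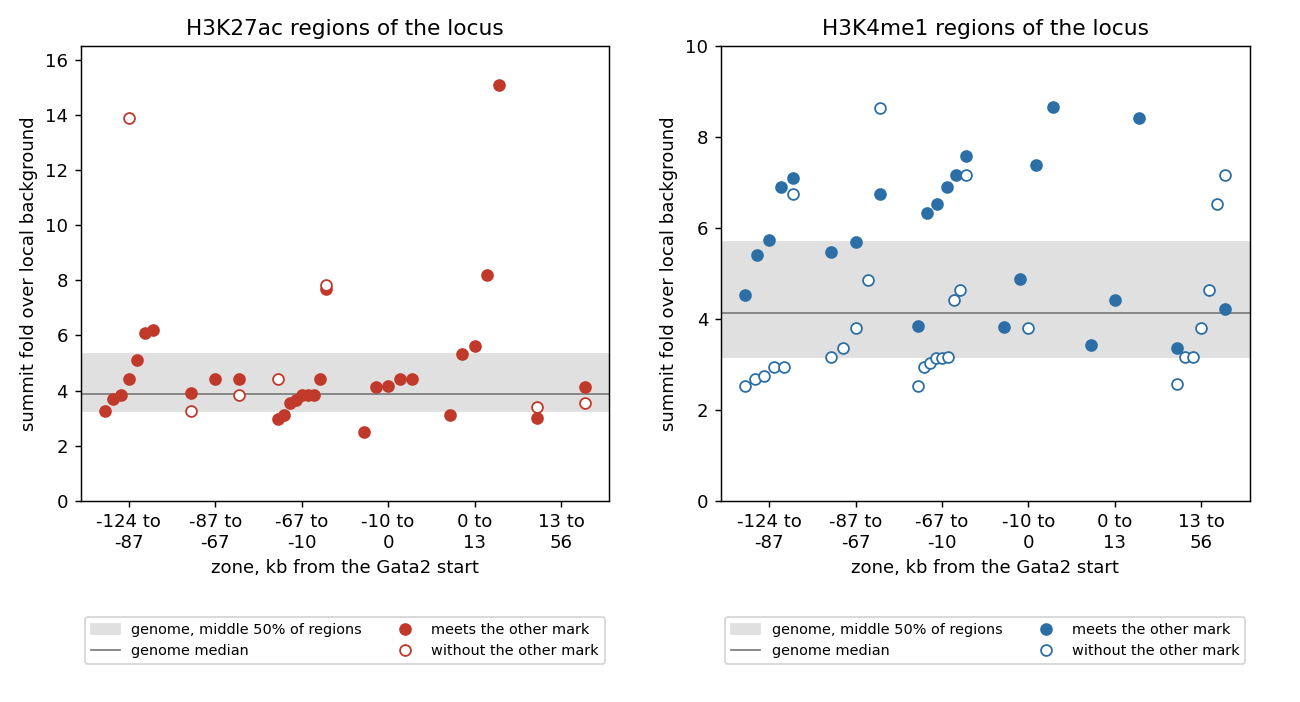
Every member by zone, in kb from the Gata2 start, with the authors' summit fold of H3K27ac (left) and H3K4me1 (right); filled points met the other mark, open points did not, and the grey band and line give the quartiles and median of all regions in the genome. H3K27ac stayed near the genome median of 3.86-fold outside a few sites, while H3K4me1 regions above 6-fold occurred in all zones.

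Counted by region, the meeting of the marks in the locus was near the genome level. Of the 38 H3K27ac regions, 31 (81.6%, exact 95% Clopper-Pearson interval 65.7 to 92.3%) shared at least 1 bp with H3K4me1, against 71.7% of all H3K27ac regions. Of the 51 H3K4me1 regions, 23 (45.1%, interval 31.1 to 59.7%) met H3K27ac, against 33.6% of all. The H3K27ac summit lay inside H3K4me1 in 25 of 38 (65.8%, interval 48.6 to 80.4%), against 58.2% in the genome. Each genome share lay inside the interval of the locus. Counted by length the locus stood lower, since H3K4me1 covered 48.0% of its acetylated length against 65.9% in the genome, and without the region at the gene start the share was 65.1%. H3K27ac in turn covered 22.2% of the H3K4me1 length of the locus, against 21.2% in the genome. All intervals cover counting error only: the reads had no molecular identifiers, and regions side by side share their surroundings.

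The strength of single regions was also near that of the genome. H3K27ac members had a median of 4.14-fold (quartiles 3.57 and 4.94) and 13.5 summit reads, against 3.86-fold (quartiles 3.25 and 5.32) and 13 reads over all regions. Of the 38, 7 (18.4%) reached 6-fold, against 18.7% in the genome, and 2 reached 10-fold, against 7.77%. H3K4me1 members had a median of 4.42-fold (quartiles 3.16 and 6.63) and 21 summit reads, against 4.12-fold (quartiles 3.16 and 5.69) and 20 reads. Of the 51, 16 (31.4%, interval 19.1 to 45.9%) reached 6-fold, against 20.7% in the genome, and 3 (5.88%) reached 8-fold, against 6.25%. The local background was more than 1.05 times the genome-wide level at 14 of 38 H3K27ac summits (background share 26.2%) and at 17 of 51 H3K4me1 summits (background share 36.8%). The largest local background was 1.59 times the genome-wide one for H3K27ac and 2.06 times for H3K4me1. Its part in the fold values was not tested.

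As in the whole genome, H3K4me1 members that met H3K27ac had higher medians of fold and width than those that did not. Meeting needs only 1 shared bp, which a wider region reaches more easily, and the fold is that of the highest point of a region. How far width enters the differences in width and in fold was not tested. The 23 with H3K27ac had a median of 5.73-fold (quartiles 4.47 and 6.996) and 1797 bp, and the 28 without had 3.16-fold (quartiles 2.95 and 4.63) and 397 bp. The ranges overlapped, at 3.37 to 8.65-fold and 2.52 to 8.64-fold. Over all H3K4me1 regions the medians were 5.69-fold and 1396 bp with H3K27ac, and 3.58-fold and 493 bp without. For H3K27ac the 31 members with H3K4me1 and the 7 without had medians of 4.14-fold and 3.84-fold, with ranges of 2.51 to 15.1-fold and 3.25 to 13.9-fold, and the medians over all H3K27ac regions were 4.37-fold and 3.503-fold. Of the 23 H3K4me1 members with H3K27ac, 15 met 1 acetylated region, 5 met 2 and 3 met 3.

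The window held more of both marks than most windows of the genome. H3K27ac covered 26.4 kb, 14.7% of the window, 6.98 times the genome share of 2.11%, and H3K4me1 covered 57.2 kb, 31.8%, 4.86 times the genome share of 6.54%. The genome was tiled into 14738 windows of the same length. The acetylated length of the locus was above that of 98.6% of them, with 210 windows as high or higher, and its H3K4me1 length above that of 97.5%, with 368 as high or higher. By number, its 38 H3K27ac summits compare with a median of 3 (quartiles 0 and 9) per window, and its 50 H3K4me1 summits with a median of 6 (quartiles 0 and 17). One H3K4me1 member has its summit just outside the window.

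**Figure D5:**
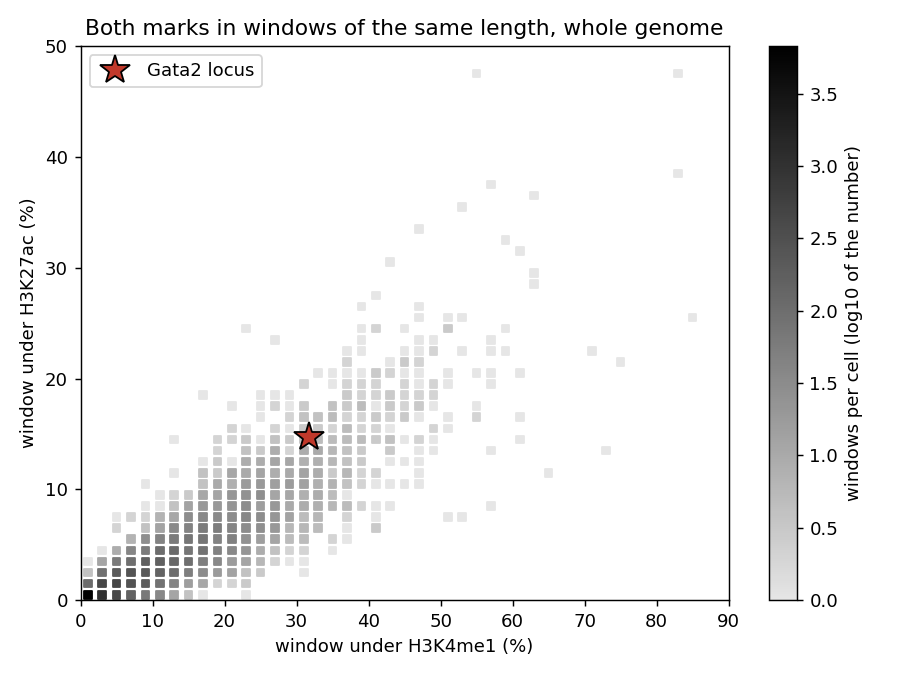
Windows of the genome as long as the Gata2 locus, by the percent of each window under H3K4me1 (horizontal) and H3K27ac (vertical); darker cells hold more windows, on a log10 scale, and the star is the Gata2 locus. It lies at 31.8% and 14.7%, among the upper few percent of the 14738 windows for both marks.

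The acetylated regions formed separate domains for the gene and for the far upstream side. With H3K27ac regions joined wherever the gap was at most 12500 bp, the domain of the gene ran from 88134313 to 88156313, 9.7 kb before to 12.3 kb after the start. It held 10 regions with 13.6 kb of acetylation in a span of 22.0 kb, 61.6% of it, and ranked 515 of 30221 domains by acetylated length. The domain that included the far upstream element ran from 88055334 to 88117048, with 18 regions but 9.32 kb of acetylation in 61.7 kb, 15.1% of its span, and ranked 974. Only 1.625 kb of this acetylation lay in the 20 kb around the element. The domain also spans a gap of 10.6 kb without H3K27ac, from 40.6 to 30.0 kb before the start. A smaller joining gap would therefore split it, and such gaps were tried only for the gene domain. H3K4me1 covered similar shares of the spans, 49.5% in the gene domain and 46.2% in the far upstream one, but lay over 36.9% of the acetylated length of the gene domain and 63.1% of that of the far upstream domain. The domains at either end of the window reached beyond it. The outer upstream one ended 106.8 kb before the start and ranked 406, and the downstream one began 33.6 kb after the start and ranked 6874.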

How the data were processed

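Peak lists of 1 H3K27ac and 1 H3K4me1 library were used, with groups from the sample titles. The input library was not analysed here. The submitters' processing notes name the aligner Bowtie2 2.0.6, the peak caller MACS2 2.0.10.20131216 and the build mm9. Not given in the sources used here are its options, the filters and the control. Among the values, the deposited fold is the ratio of summit pileup to local background. Each deposited −log10 p or −log10 q value is that of the summit, and the deposited score was not used. The deposited positions are printed counting from 1.

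Summit reads and local background were recovered from fold and −log10 p, taking fold as (reads + 1)/(background + 1) and p as a Poisson tail. The deposited −log10 p was met within 0.000227 for H3K27ac and 0.000241 for H3K4me1. The genome-wide background was 2.38 and 3.75 reads. The calculation was checked on simulated data made with the same formulas. Regions met when they shared at least 1 bp. Intervals are exact at 95%. Windows were tiled with mm9 lengths from GenomeInfoDb 1.38.1, without removing assembly gaps.

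The window and lists were chosen with earlier results of these data known. Regions named were the 5 of highest fold and the 3 widest per mark, those with a summit within 2 kb of a known element, all H3K27ac regions without H3K4me1 and the strongest H3K4me1 region without H3K27ac; further regions that flank or neighbour these, the strongest downstream, and the comparisons of wide regions and stretches were chosen after seeing the values. Alternatives changed the overlap, the q limit, the number of regions, the window, the tiling and the joining gap. The tools were scipy 1.17.1, pandas 2.3.3 and numpy 2.4.6 under Python 3.11.15, and figures were drawn with matplotlib 3.10.9.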

Additional observations from a re-analysis of the deposited data

How the results depend on the processing

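No paired analysis was possible because there was a single library of either mark. Of 43 alternative values, 17 stayed within the counting interval of a share, within 1.5 times a count or at the same rounded value, and 26 moved. With peaks limited to a −log10 q of 5 or more and of 10 or more, H3K27ac regions numbered 18 and 7, covered 10.9% and 7.68% of the window and had medians of 5.21-fold and 7.82-fold. H3K4me1 regions then numbered 33 and 22, covered 28.3% and 24.8% and had medians of 5.73-fold and 6.82-fold. Each limit was applied to both lists and removes regions by construction. At 10, 57.1% of the 7 H3K27ac regions met H3K4me1 (interval 18.4 to 90.1%) and 42.9% of their summits lay inside it (9.90 to 81.6%). Of H3K4me1 regions, 18.2% met H3K27ac (5.19 to 40.3%), and the acetylated length stood above 98.3% of windows. With as many H3K4me1 as H3K27ac regions in the genome, 70.0% of H3K4me1 members met H3K27ac (50.6 to 85.3%). Genome shares under these changes are not given here, so these shares are not to be set beside those of the full lists. An inner window from 87 kb before to 23 kb after the start held 31 H3K4me1 regions, had 20.1% under H3K27ac and 37.7% under H3K4me1, and had medians of 4.16-fold and 4.63-fold. The acetylated length of the gene domain was 12671 bp under the −log10 q limit of 5 and 10633 bp with gaps of up to 1 kb, against 13554 bp. Among windows with at least 1 region, chosen after seeing the data, the locus stood above 98.1% for H3K27ac and 96.7% for H3K4me1. The cause of moves that do not follow from fewer regions was not tested. Depth limits the classes without the other mark, since no H3K27ac summit under 8 reads and no H3K4me1 summit under 10 reads is listed.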
